A study of Mus musculus with 2 samples.

Results

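The broadest stretches of open chromatin in mouse ileal enteroids were described here, chosen by their width alone. They were selected on a called interval of at least 2500 bp on chromosomes 1 to 19, in the list of the control library or in that of the Taf4-inactivated library. Of 161727 intervals in both lists, 158011 lay on these chromosomes, and 1196 of them were wide. The control list held 827 wide intervals among 88261, or 0.937% (exact Clopper-Pearson 95% interval 0.874 to 1.00%). The Taf4-inactivated list held 369 among 69750, or 0.529% (0.477 to 0.586%). Overlapping wide intervals of the lists were joined into 1022 domains, of which 174 were wide in both lists, 653 in control only and 195 after inactivation only. Because width chose them, these numbers are a description with no test.

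Enteroids are epithelial cultures grown from intestinal crypts, and ATAC-seq uses a transposase to insert adapters into accessible DNA. The cultures came from the ileum of mice aged 4 months, of mixed C57Bl6/129sv background. Control enteroids carried loxP-flanked Taf4 alleles (Taf4 lox/lox) and no Cre. Taf4-inactivated enteroids carried the same alleles with VilCreERT2, a recombinase driven by the villin promoter in intestinal epithelium and activated by tamoxifen. Both received 1 µM 4-hydroxytamoxifen (4-OHT) for 3 days, so that loss of Taf4 and the action of activated Cre cannot be told apart. There was 1 library per genotype, and no p-value between genotypes could be had. All intervals of shares are exact 95% ones and cover counting error only.

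Taf4 is a subunit of TFIID, the complex that binds core promoters and helps to place RNA polymerase II. Most accessible sites are short, since they span a promoter or an enhancer between positioned nucleosomes. Longer stretches are known from promoters rich in CpG dinucleotides and from genes of transcription factors and signalling components, where several regulatory elements lie side by side.

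Stretches of the reference (assembly NCBIM37, mm9) are shown for 5 domains, so that the CpG-rich and CpG-poor kinds can be compared. They were picked after the values had been seen. For Gse1, Sox9 and Myc the 200 bases just before the annotated start site are given. For the domains in Slc25a48 and near Olfm1, which the other list lacked, 200 bases near the centre are given. All are on the plus strand, hold no annotated exon, and have each CpG in capitals.
Gse1, wide in both, chr8:123059557-123059756: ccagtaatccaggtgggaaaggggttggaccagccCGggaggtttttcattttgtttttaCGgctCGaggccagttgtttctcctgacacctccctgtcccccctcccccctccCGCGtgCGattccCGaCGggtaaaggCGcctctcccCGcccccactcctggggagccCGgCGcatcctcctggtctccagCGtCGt
Sox9, wide after inactivation only, chr11:112643338-112643537: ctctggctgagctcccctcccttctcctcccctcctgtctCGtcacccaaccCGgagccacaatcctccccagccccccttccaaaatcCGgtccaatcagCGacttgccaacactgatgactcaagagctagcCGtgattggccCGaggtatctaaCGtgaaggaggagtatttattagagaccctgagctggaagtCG
Myc, wide in control only, chr15:61816746-61816945: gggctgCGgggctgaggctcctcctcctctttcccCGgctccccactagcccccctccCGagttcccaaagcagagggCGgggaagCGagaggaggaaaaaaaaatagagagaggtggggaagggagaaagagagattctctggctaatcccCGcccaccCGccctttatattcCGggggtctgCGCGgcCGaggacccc
Slc25a48, control list only, chr13:56551163-56551362: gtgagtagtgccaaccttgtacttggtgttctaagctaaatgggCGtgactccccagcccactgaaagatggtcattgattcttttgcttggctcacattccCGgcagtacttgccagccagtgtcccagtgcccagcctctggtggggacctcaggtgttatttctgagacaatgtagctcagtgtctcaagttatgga
Olfm1, Taf4-inactivated list only, chr2:28161748-28161947: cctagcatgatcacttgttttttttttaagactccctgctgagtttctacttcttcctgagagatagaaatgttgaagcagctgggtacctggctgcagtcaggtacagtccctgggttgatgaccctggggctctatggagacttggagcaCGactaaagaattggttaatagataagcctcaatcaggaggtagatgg
The 200 bases before the Gse1 start held 14 CpG, those before Myc 11 and those before Sox9 8. The stretch in Slc25a48 held 2 and the one near Olfm1 held 1.

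By an estimate, depth differed between the libraries. The background level solved from the fold and p of the narrowest intervals was 12.1 piled-up reads in control and 7.35 after inactivation, which puts the Taf4-inactivated library at 60.5% of the control. The deposited values are averages over an interval, so this is an approximate figure. All 5 epithelial markers (Epcam, Cdh1, Vil1, Cdx2 and Krt8) had an interval over a start site in both lists. Of 9 markers of other cell types, 3 did in both, with widths of 909 bp in control and 577 bp after inactivation at Col1a2, 504 and 1157 bp at Des, and 3071 and 1633 bp at Pdgfra. The markers Ptprc, Cd3e, Pecam1, Cdh5, Col1a1 and Acta2 had none in either. An open start site does not show that a gene is expressed. Domains of 2 kinds need care, namely the 19 domains in which at least 50% of the 32-base words occur more than once in the reference, and those at the start of an assembled chromosome. The former included 16 control and 7 Taf4-inactivated wide intervals, and the results without them are given under the alternatives.

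Just inside the threshold, control intervals of 2500 bp lay at the start sites of Kifc3 and Hexim1, and Taf4-inactivated ones of 2501 and 2502 bp at Naaladl1 and Yy1. Just outside it, control intervals of 2499 bp lay at Aldh18a1 and Gtf2a1, and Taf4-inactivated ones of 2497 and 2498 bp at Egr1 and Mmp17. Median widths were 2794 bp in control (quartiles 2610 and 3070) and 2824 bp after inactivation (2623 and 3073). The control list had 14 intervals over 4000 bp. The wide intervals took up 2.40 Mb of the 64.4 Mb in the control list and 1.07 Mb of 46.7 Mb after inactivation.

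By fold, the median wide interval stood near the middle of its list. The fold of a wide interval, an average over its length relative to the background of the same library, had a median of 2.06 in control and 2.46 after inactivation. Ranked against all intervals of the same list, chrX and chrM included, these medians of rank were at percentile 55.0 and 51.2. By p, the median percentile was 75.6 in control and 73.6 after inactivation. Rank by p thus stood above rank by fold in both lists.

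The other list covered most wide intervals, often with intervals of lesser width. Of the 827 control wide intervals, 174 (21.0%, 18.3 to 24.0%) met a wide Taf4-inactivated interval, 152 (18.4%, 15.8 to 21.2%) met several narrower ones, 425 (51.4%, 47.9 to 54.8%) met 1 narrower one and 76 (9.19%, 7.31 to 11.4%) met none. Over all control intervals of these chromosomes, those shares were 0.471%, 0.496%, 46.4% and 52.7%. Of the 369 Taf4-inactivated wide intervals, 174 (47.2%, 42.0 to 52.4%) met a wide control interval, 52 (14.1%, 10.7 to 18.1%) several narrower ones, 136 (36.9%, 31.9 to 42.0%) 1 narrower one and 7 (1.90%, 0.766 to 3.87%) none. Over all Taf4-inactivated intervals, the shares were 1.30%, 0.381%, 58.5% and 39.9%. Any overlap of 1 bp counted, and a longer interval has more bases to be met.

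**Figure D1:**
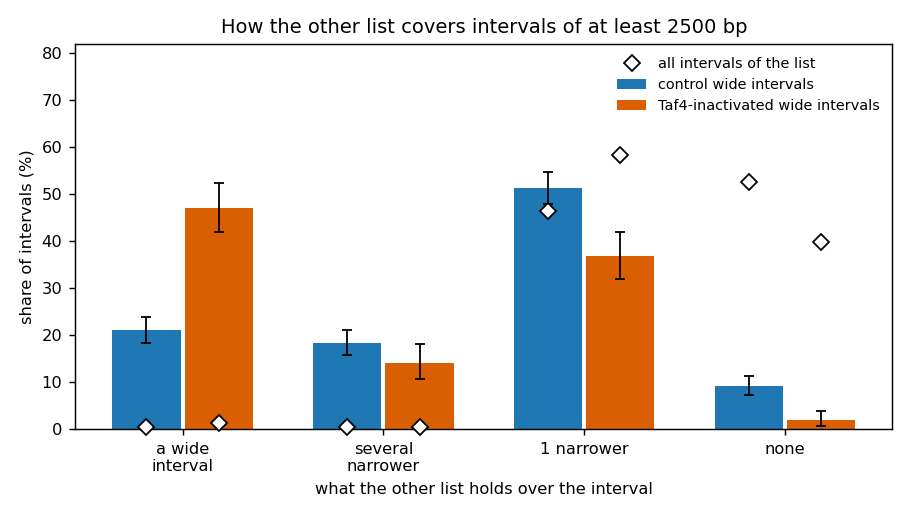
Share of wide intervals (bars, in %, with exact 95% intervals for counting error) by what the other list holds over them, and the same share over all intervals of each list (diamonds). A wide partner was met by 21.0% of control and 47.2% of Taf4-inactivated wide intervals.

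These shares depend on how many intervals pass in each list. With the 369 widest of each list, which in control meant 2834 bp or more, a wide partner was met by 26.3% in either direction. Wide intervals of the lists met in pairs, so equal numbers give equal shares by construction. A partner of the class of 1 narrower one was met by 42.5% of control and 57.5% of Taf4-inactivated intervals, the reverse of the order above. Control intervals under 2834 bp counted as narrower here, also those of at least 2500 bp. This moved partners of Taf4-inactivated intervals from the wide to the narrower class. A control wide interval with no partner was then seen in 6.78% of cases, and a Taf4-inactivated one in 1.90%. Since the control library was the deeper by the depth estimate, depth moved with this difference, and its part in it was not tested.

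The lists also differed in the bases they covered. The median control wide interval had 51.7% of its bases in Taf4-inactivated intervals (quartiles 29.0 and 80.0%), and the median Taf4-inactivated one had 82.4% of its bases in control intervals (57.8 and 97.8%). This difference was not particular to wide intervals. At 2000 to 2499 bp the medians were 49.9% in control and 82.5% after inactivation. With several narrower partners the median covered share was 49.2% in control, and with 1 narrower partner 44.6%. The gaps between the narrower pieces inside control wide intervals had a median of 1075 bp, with a range of 803 to 2924 bp. No gap between neighbouring intervals of either list was under 801 bp, so that a gap has to exceed this size before a stretch appears as separate intervals.

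**Figure D2:**
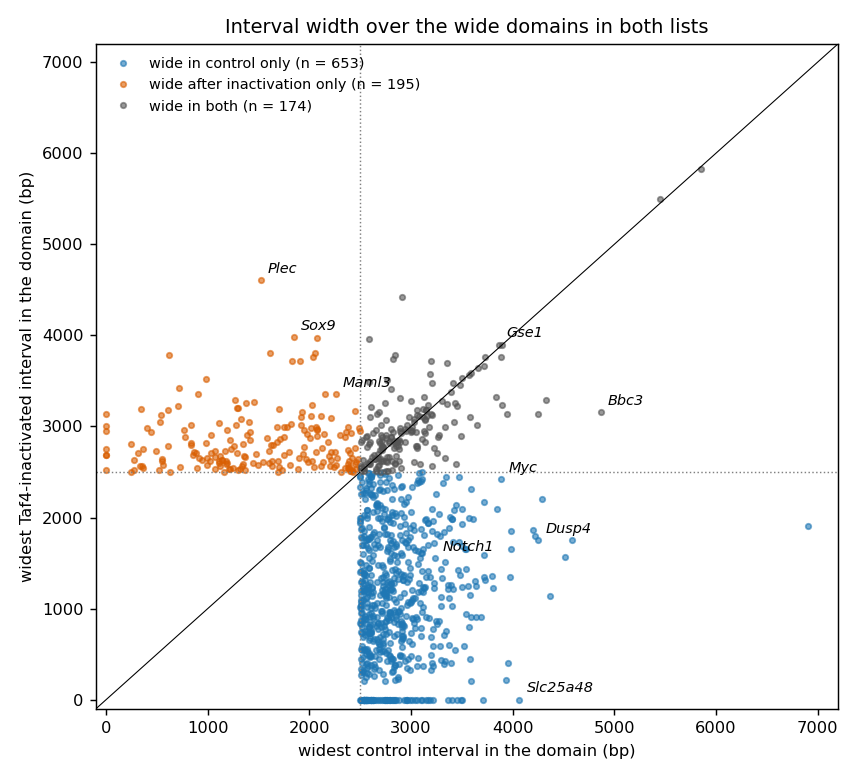
Width of the widest control (x axis, bp) and Taf4-inactivated interval (y axis, bp) in each of the 1022 domains, with the 2500 bp minimum dotted and the line of equal width drawn. Domains wide in both lists (n = 174) lie around the line, while those wide in control only (n = 653) reach down to a width of 0 at Slc25a48.

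Domains that were wide in both lists lay mostly at promoters. A start site of a protein-coding gene lay in 77.6% of them, against 43.5% of domains wide in control only and 52.3% of those wide after inactivation only. In these shared domains the widths were close, with medians of 2875 bp in control and 2895 bp after inactivation. The control interval was the wider in 91 and the Taf4-inactivated one in 82. Gse1 had nearly the same outline in both, from 123059069 to 123062936 (3868 bp) in control and from 123059031 to 123062930 (3900 bp) after inactivation on chromosome 8. Klf10, a zinc finger transcription factor, had 3498 and 3533 bp.

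Some shared domains differed in extent. Those wider after inactivation included a domain 49060 bp from the nearest coding start, that of Tob1, with 2585 bp in control and 3962 bp after inactivation, and Sp140, with 2838 and 3784 bp. In the Sp140 domain 82.7% of the 32-base words were repeated in the reference. Serpinb1a had 2819 and 3736 bp, and Hes2, of the Hes family of repressors, had 2583 and 3487 bp.

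The reverse was largest at Bbc3, which encodes the pro-apoptotic protein Puma. Its control interval measured 4867 bp, and after inactivation 2 intervals of 1083 and 3155 bp lay over it. At Foxo3, a forkhead transcription factor, a control interval of 4247 bp faced intervals of 351 and 3133 bp. Trim8, an E3 ubiquitin ligase, had 4327 bp in control and intervals of 3288 and 245 bp after inactivation. Irs2, an adaptor of insulin receptor signalling, had 3940 and 3134 bp, and a domain in Bcas1 had 3445 and 2586 bp. These intervals remained wide in both lists, and width itself has no error estimate from 1 library.

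A break into separate pieces was seen in both directions. Myc, a growth-promoting transcription factor and a target of Wnt signalling, had 1 control interval of 3886 bp, from 61815920 to 61819805 on chromosome 15. After inactivation 2 intervals lay there, of 2418 bp over the start site and of 1237 bp further into the gene. The former ran from 61814927 to 61817344, so it began upstream of the control interval and lay only partly within it. Notch1, the receptor that keeps intestinal progenitors from secretory fate, had 3238 bp in control and pieces of 1558 and 710 bp after inactivation, the shorter over the start site. Dusp4, a phosphatase of MAP kinases, had 4254 bp in control and pieces of 786 and 1752 bp. The 2 pieces at Myc were both higher in fold rank within their own list than the control interval was in its list, at percentiles 36.4 and 48.8 against 31.0.

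Conversely, Sox9, the transcription factor of crypt progenitors and Paneth cells, had 1 interval of 3982 bp after inactivation, from 112642474 to 112646455 on chromosome 11. In control the same stretch held intervals of 1848 and 1405 bp, the former over the start site. Plec, which encodes the cytolinker plectin, had 4606 bp after inactivation and control pieces of 1522, 874 and 612 bp. Prrc2b had 3971 bp against control pieces of 2080 and 210 bp. A domain with the start sites of Cfl1, which encodes the actin-severing protein cofilin, and Mus81, a nuclease of DNA repair, had 3806 bp, of which the control list covered 71.3% with 2 intervals. At Cdc42ep5, 3804 bp were covered to 55.6% by 2 control intervals. The pieces of Plec were among the lowest in fold of the control list, at percentiles from 0.0199 to 1.46. The Taf4-inactivated Plec interval was also low in its own list, at percentile 2.33.

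The largest number of pieces inside a control wide interval was 3, at Sfi1, St14 and Dysf. In St14, which encodes the membrane protease matriptase, a stretch of 3952 bp in the gene body met Taf4-inactivated pieces of 205, 400 and 305 bp, and 23.0% of it was covered. At the start of Dysf, the gene of the membrane repair protein dysferlin, 3325 bp met pieces of 397, 253 and 327 bp. The −log10 q of these pieces ran from 1.24 to 4.17, and 5 of the 6 were below the median of their list, 2.65. Other control intervals with several narrower partners were 4367 bp at Grifin (39.1% covered), 4219 bp in Bcar3 (67.0%) and 4584 bp near Gm13152 (42.5%). In the body of Gpr108, an interval of 4515 bp met 1 narrower one of 1565 bp, and 34.7% of it was covered.

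Wide intervals with no partner at all were weaker than the other wide ones. The 76 control ones had a median −log10 q of 1.87, against 4.81 in those with a wide partner and 1.98 over all control intervals, and a median fold percentile of 34.1 against 69.2. Of the 76, 9 (11.8%, 5.56 to 21.3%) held a coding start site, and their median CpG observed over expected was 0.206. Both were close to the values over all control intervals, 14.3% and 0.213. The widest lay in Slc25a48, a member of the mitochondrial carrier family, with 4067 bp on chromosome 13 and a −log10 q of 1.49, at 9514 bp from the nearest coding start. The next were 3710 bp in Rbfox3, 3505 bp at 155233 bp from Fgf18, 3495 bp at 194604 bp from Tnks and 3455 bp in Camkv. After inactivation the 7 were led by 3136 bp at 99101 bp from Olfm1, 3000 bp in Col27a1, 2949 bp in Allc and 2758 bp at 42399 bp from Fam105a.

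The widest intervals of all stood near chromosome ends. A control interval of 6911 bp at a start site of Sfi1, a centrosome component, lay at 3093040 on chromosome 11 and met 3 narrower Taf4-inactivated intervals over 64.0% of its length. A second one in the body of Sfi1, of 5453 bp in control and 5498 bp after inactivation, had a fold of 1.40 and 1.43, at or near the bottom of its list. On chromosome 9 at 3022005, an interval over Gm10717 and Gm10718 measured 5851 and 5830 bp, and 87.1% of its words were repeated. The repeated share was 14.1% and 19.0% in the Sfi1 domains. Reads mapping to several places had been left out by the authors, and the part of repeated sequence in these widths was not tested.

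Start sites were common in wide intervals. A coding start site lay in 418 of 827 control wide intervals (50.5%, 47.1 to 54.0%) and in 236 of 369 Taf4-inactivated ones (64.0%, 58.8 to 68.9%), against 14.3% and 17.3% over all intervals of the lists. With start sites of any transcript the shares were 55.3% and 69.4%, against 16.3% and 19.2%. The share rose with width throughout, in control from 3.25% under 500 bp over 30.6% at 1000 to 1499 bp and 43.5% at 2000 to 2499 bp. After inactivation these were 3.42%, 41.2% and 57.7%. Length alone gives an interval more room for a start site, and its part was not separated. Of the remaining control wide intervals, 208 lay in bodies of coding genes, 16 at non-coding start sites and 185 elsewhere, and after inactivation 58 lay in gene bodies.

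Several genes could share a domain. Start sites of 2 or more coding genes lay in 39 control wide intervals (4.72%) and in 20 Taf4-inactivated ones (5.42%), against 1.29% and 1.65% over all intervals. One domain on chromosome 11 held starts of 3 genes, Ccdc56, Cntd1 and Wnk4, a kinase that regulates ion transport. It measured 3984 bp in control, and the widest Taf4-inactivated interval there was 1652 bp. Ethe1 and Zfp575 shared 3721 bp in control, with 2 intervals of up to 2176 bp after inactivation. Fgf21, a metabolic hormone, and Fut1, a fucosyltransferase, shared 3376 bp in control and 1885 bp after inactivation. Abhd15 and Trp53i13 had 3416 bp in control and at most 1220 bp after inactivation, and Txndc17 with 4933427D14Rik 3500 and 2097 bp. Cdhr5, a protocadherin of the brush border, and Sct, the hormone secretin, shared 3420 bp in control, while the Taf4-inactivated interval of 3051 bp held a start of Cdhr5 and none of Sct. An end of a coding transcript lay in 84 control wide intervals (10.2%) and 31 Taf4-inactivated ones (8.40%), against 1.88% and 1.49%.

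Around start sites the wide intervals reached further into the gene than upstream. In the 379 control wide intervals with coding starts of 1 gene, the median extent was 914 bp upstream of the outermost start and 1538 bp downstream. After inactivation, in 216 intervals, these were 934 and 1359 bp. The downstream side was the longer in 241 of 379 control (63.6%, 58.5 to 68.4%) and 132 of 216 Taf4-inactivated intervals (61.1%, 54.3 to 67.7%). The start site itself was usually covered by the other list, in 326 of 379 (86.0%, 82.1 to 89.3%) and in 202 of 216 (93.5%, 89.4 to 96.4%). Such cover was not particular to wide intervals. Of all protein-coding genes, 12905 had a start interval in control, 12589 after inactivation and 11786 in both. In the 172 control intervals with 1 narrower partner, that partner ended short by a median of 274 bp on the upstream and 542 bp on the downstream side, and more bases were missing downstream in 104. Wide intervals themselves reached further downstream, so more bases could be missing on that side, and the part of this was not separated.

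**Figure D3:**
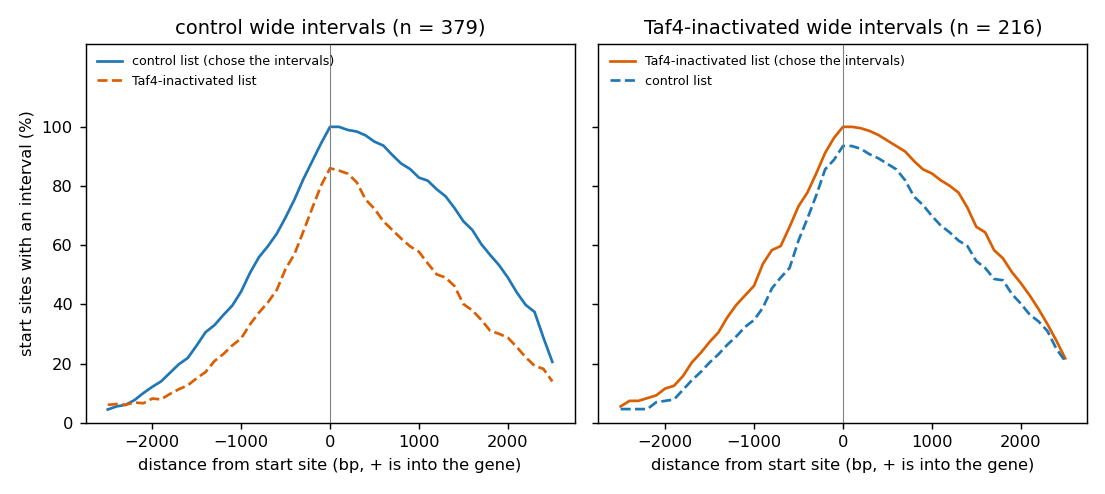
Share of start sites (in %) with an interval at each distance (bp, positive into the gene), for wide intervals with coding starts of 1 gene in control (left, n = 379) and after inactivation (right, n = 216). Solid lines are the list that chose the intervals, so they are 100% at 0 by construction. Dashed lines are the other list, at 86.0% and 93.5% there. The zero point is not the start used for the downstream extents in the text, so the curves and those extents differ on that side. At 1500 bp the control list still covered 68.1% in the left panel.

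CpG content was highest in wide intervals with a wide partner. CpG observed over expected compares the number of CpG with that predicted from the C and G content. Its median was 0.334 in control wide intervals and 0.545 in Taf4-inactivated ones, against 0.213 and 0.228 over all intervals. Among intervals with a coding start site, however, the wide ones were lower. Their medians were 0.622 against 0.709 over all such intervals in control, and 0.674 against 0.732 after inactivation. Without any start site the medians were 0.211 in wide and 0.189 in all control intervals, and 0.233 and 0.196 after inactivation. A value of at least 0.6 was seen in 234 control (28.3%, 25.2 to 31.5%) and 167 Taf4-inactivated wide intervals (45.3%, 40.1 to 50.5%), against 12.4% and 16.1% over all. Control wide intervals with a wide partner had a median of 0.669, those with several narrower ones 0.319, those with 1 narrower one 0.304. After inactivation these medians were 0.667, 0.333 and 0.406, so that the order of the narrower classes differed between the lists. By domain the medians were 0.663 when wide in both, 0.277 when wide in control only and 0.362 when wide after inactivation only. The share with a coding start site in control was 77.0%, 54.0%, 45.4% and 11.8% from a wide partner to none.

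**Figure D4:**
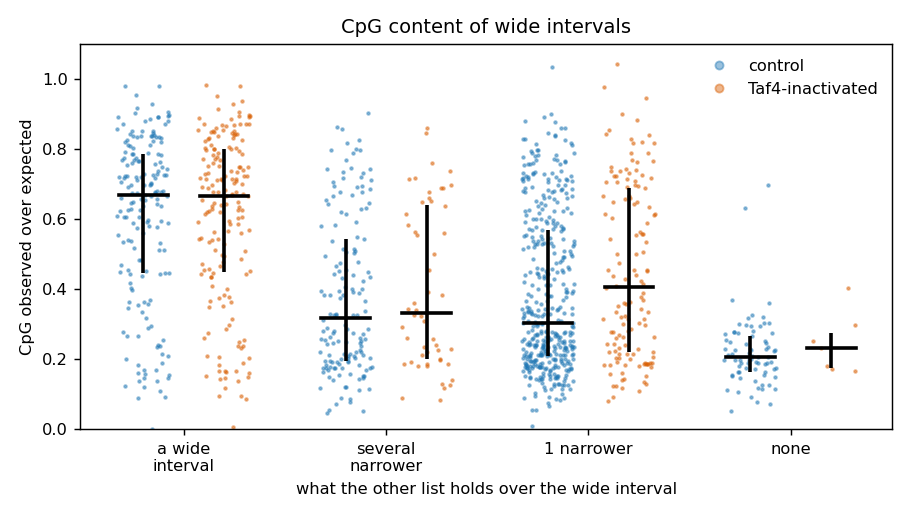
CpG observed over expected (y axis) of each wide interval (points) by what the other list holds over it, for control and Taf4-inactivated intervals, with medians (horizontal bars) and quartiles (vertical bars). Medians in control fall from 0.669 with a wide partner to 0.206 with none.

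Genes of 13 lists fitting the tissue were looked up, a gene's width being that of the widest interval over any of its coding start sites. Over all protein-coding genes, 568 of 21281 had a start site in a wide interval of either list (2.67%). From the lists 36 genes did, of which 15 were wide in both, 16 in control only and 5 after inactivation only. Of the 568 genes, 457 were wide in control, fewer after inactivation and 145 in both. Wide in control only was thus the most common class over all coding genes as well, and not particular to the listed genes. The lists were chosen with earlier results known and give no test.

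Among intestinal transcription factors, wide start sites included, beside Sox9, those of Tcf7l2, the main nuclear effector of Wnt signalling in the gut, with 3049 bp in control and 2785 bp after inactivation, and Foxa2, a forkhead factor of endoderm, with 3338 and 1515 bp. The Foxa2 interval after inactivation lay inside the control one.

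In the Notch pathway 3 of 27 annotated genes were wide. Jag1, a ligand, kept 3206 bp in control and 3477 bp after inactivation. Notch1, the receptor, was wide in control only. Maml3, a mastermind-like coactivator of the Notch complex, had 3355 bp over its start site after inactivation and none over it in control, where an interval of 2261 bp lay in the same domain and ended short of the start.

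In the Wnt pathway 7 of 42 annotated genes were wide. The receptors Fzd5 (3496 bp in control, 2899 bp after inactivation) and Fzd7 (2776 and 2515 bp) were wide in both, while Fzd8 was in control only (2986 and 1881 bp). Sp5, a zinc finger factor induced by Wnt signals, was wide after inactivation only (2358 and 2941 bp). Myc, Sox9 and Tcf7l2 completed the list.

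Among the lists, the shares of wide genes were highest in the AP-1 family, the KLF family and the immediate early genes, all from few genes. In the AP-1 family 5 of 19 annotated genes were wide. Jun (3131 bp in control, 2953 bp after inactivation) and Maf (3093 and 2591 bp) were so in both. Atf3 (2757 and 1365 bp) and Jund (2603 and 2471 bp, with the start of a further gene) were so in control, and Fosl2 (1748 and 2998 bp) after inactivation. In the KLF family it was 4 of 16, with Klf4, a factor of differentiating epithelium, at 3454 and 3221 bp. Klf3 had 2734 and 1889 bp, and Klf16 had 2421 and 2521 bp.

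Of 30 immediate early genes, which respond within minutes to growth factors, 6 were wide and all of these were so in control. Egr2 (3436 bp in control, 3255 bp after inactivation), Nr4a2 (2747 and 3255 bp) and Dusp6, a phosphatase of ERK (2689 and 2582 bp), were wide in both. Egr1 (2732 and 2497 bp) and Zfp36l2, which promotes mRNA decay (2784 and 1259 bp), were not after inactivation, the former by 3 bp. Dusp4 was described above.

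Genes of differentiated epithelium included 5 wide ones. Of 34 annotated enterocyte genes 2 were wide, Cdhr5 and Ush1c, a scaffold of the brush border (2539 bp in control, 2516 bp after inactivation), both in both lists. Of 29 annotated junction and keratin genes 3 were. Krt8, a keratin of simple epithelia, had 3063 and 2785 bp. Jup, which encodes plakoglobin, had 2924 and 1317 bp. Cldn15, a pore-forming claudin of the gut, had 2665 bp in control, and after inactivation pieces of 907 and 792 bp with no interval over the start site between them.

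In the lists of chromatin and housekeeping genes at most 1 gene each was wide, beside 2.67% over all coding genes. These lists are too small to tell such counts from that share. None of 14 annotated TFIID subunit genes and none of 67 clustered histone genes was, although 14 and 41 of them had a start interval in control. Of 32 annotated Polycomb genes only Pcgf3 was (3.1%), with 2801 bp in control and 1723 bp after inactivation. Of 75 cytosolic ribosomal protein genes only Rpl3 was (1.33%), with 3056 bp in control and 889 bp after inactivation. The shorter Rpl3 interval had a fold percentile of 78.2 in its list against 49.0 for the control one. Of 39 Hox genes 2 were wide (5.13%). Of these, Hoxa3 was wide in control, with 2776 bp there and 1676 bp after inactivation.

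**Figure D5:**
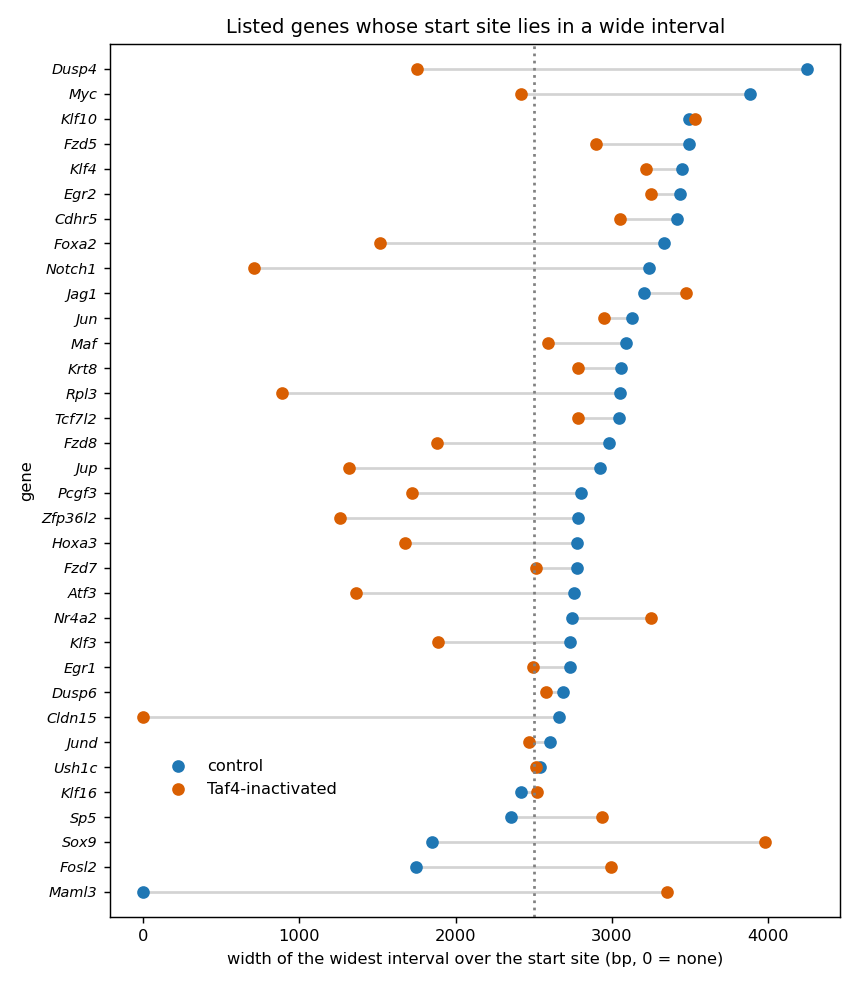
Width (bp, 0 where no interval lies over a start site) of the widest start site interval in control and after inactivation for 34 of the 36 listed genes with a wide one, with the 2500 bp minimum dotted. Control values exceed those after inactivation by most at Cldn15, Notch1 and Dusp4, and the reverse is largest at Maml3 and Sox9.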

How the data were processed

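ATAC-seq was carried out by the authors on 1 control and 1 Taf4-inactivated enteroid library. Per the submitters' processing notes and the study's methods, reads were demultiplexed with bcl2fastq 2.17.1.14, aligned to mm9 with Bowtie 1.0.0 keeping unique alignments, and broad intervals were called in each library separately with MACS2 2.1.1. How duplicates and mitochondrial reads were handled is not given in the sources used here. The authors deposited positions of intervals with a score, a fold enrichment over background (a ratio), and −log10 p and −log10 q values, each averaged over its interval and scaled to its own library. The score was not used. Read-level signal was not used here.

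Every interval end fitted the NCBIM37 (mm9) reference, and genes are those of GENCODE for that build. Older symbols were matched through a RefSeq gene table. Intervals were compared by overlaps of at least 1 bp with Python 3.11.15, numpy 2.4.6, pandas 2.3.3, scipy 1.17.1 and matplotlib 3.10.9. Relative depth was solved from fold and Poisson p in the narrowest intervals. On simulated data its largest error was 2.84%, and all cover classes of 400 simulated intervals were recovered. The simulated depth data were Poisson counts with no calling of intervals, so this error does not bound that of the real estimate. The members, lists and tests were chosen with earlier results of these data known. Named by rule were the 8 widest intervals per list, the 5 widest without a partner, the 5 widest with several narrower partners, the 5 with most partners, the 5 domains with the largest width difference each way, the 8 with most coding starts, and listed genes with a wide interval, of which some are not reported here. Genes named only beside the width threshold, as markers or for their sequence were chosen otherwise, the sequences after values were seen. Alternatives changed the width, joining, q, overlap, chromosomes, number of intervals and start site definition. Joining across 1000 bp and leaving out repeated domains were added after the data were seen.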

Additional observations from a re-analysis of the deposited data

How the results depend on the processing

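No paired analysis was possible because neither genotype had a replicate, which also meant that leaving a library out could not be tried. Of the values under alternatives 112 moved by less than their limit, 58 by more, and 1 difference between the lists reversed. The limit was a fixed ratio for numbers and lengths, and counting error for shares. The difference that reversed was the share with 1 narrower partner, 14.5 percentage points higher in control and -14.9 points with equal numbers of widest intervals. In that setting control intervals under 2834 bp counted as narrower partners, also those of at least 2500 bp. With equal numbers the share with a wide partner was the same in both lists (0.0 points) by construction, since wide intervals met in pairs. The lists then differed by 10.03 points for several narrower partners and 4.88 points for none. The difference for none was 9.42 points at 2000 bp, 4.64 at 3000 bp and 15.7 with partners of −log10 q of at least 2, where that for 1 narrower partner was 9.09. Joining across 500 bp changed nothing because no gap was under 801 bp, so its values, counted among the 112, could not have moved. Numbers of wide intervals were 2594 in control and 1268 after inactivation at 2000 bp (1326 apart), 245 and 106 at 3000 bp (139 apart), and 1312 and 583 when joined across 1000 bp (729 apart, chosen after seeing the data). Covered lengths were 6.29 and 3.05 Mb (3.24 Mb apart), 0.830 and 0.359 Mb (0.471 Mb apart), and 3.89 and 1.73 Mb (2.16 Mb apart). The share of control intervals with several narrower partners, 18.4%, was 10.8% at 2000 bp, 27.3% at 3000 bp, 24.4% with equal numbers, 11.9% with an overlap of 10%, 10.4% with partners of −log10 q of at least 2 and 14.6% when joined across 1000 bp. After inactivation it was 9.38%, 20.8%, within its interval, 10.03%, 8.67% and within its interval. Control intervals without a partner made up 12.3%, 6.53%, 6.78%, 11.7%, 24.1% and 11.6%, and Taf4-inactivated ones 8.40% with partners of −log10 q of at least 2. With 1 narrower partner, control shares were 46.5% at 3000 bp, 42.5% with equal numbers, 55.4% with the 10% overlap and 44.9% with the q limit, and after inactivation 57.5% with equal numbers. A wide partner was met by 26.3% of each list with equal numbers. The median covered share in control was 58.0% at 3000 bp, where the lists differed by -23.8 percentage points, and 46.4% with the q limit. Any start site was held by 59.6% of control intervals within 1000 bp, coding ones by 50.5% and 64.0%, any at 2000 bp by 50.5% and 63.8%, and after inactivation at 3000 bp by 75.5%. Leaving out domains of repeated sequence moved no value past its limit. The causes of these shifts were not tested. Depth limits what a missing partner shows in the library estimated to be the shallower.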

Other observations

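The share of wide intervals varied between chromosomes, and its counting error was not estimated. In control it ran from 0.586% of a chromosome's intervals on chromosome 6 (27 wide ones) to 1.17% on chromosome 11 (76). After inactivation it ran from 0.164% on chromosome 16 (4) to 0.911% on chromosome 17 (29). The control share was the higher on 18 of 19 chromosomes. The exception was chromosome 19, with 0.848% in control (28 wide intervals) and 0.878% after inactivation (20).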
